A study of Rattus norvegicus with 31 samples.

Results

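Gastrocnemius muscle of 7 Ucp1 knockout rats was compared with that of 8 control rats, all kept at room temperature. These 15 libraries were taken by their labelled genotype and temperature out of the 31 in the series, and every gene of the count table that passed a filter on low counts was examined. The rats of both groups were female Sprague Dawley animals, aged 7 months, fed chow and held at room temperature for the 14 days that the other animals spent at 4 °C. The labels call the comparison animals both wild type and control, and do not say how the Ucp1 allele was made. A further 8 Ucp1 knockout and 8 control rats of the same sex, strain, age and diet were kept in the cold, and they serve below as a second, separate set of animals of each genotype. Each animal gave 1 library, the animals are numbered from 1 to 31 without repeats, and no litter, cage or batch is named.

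Ucp1 is the uncoupling protein of brown fat mitochondria. It lets protons return to the matrix without making ATP, so that the energy of fuel oxidation is released as heat. Gastrocnemius is a mixed, mostly fast calf muscle, and muscle is the other large source of heat in the body, through shivering and through futile cycling of calcium at the sarcoplasmic reticulum. Genes of fuel oxidation, calcium handling, fibre type and stress defence are therefore of interest when the brown fat route is missing. Ucp1 itself is not analysed here, so the genotype of each library rests on its label.

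No gene of 10082 tested differed between Ucp1 knockout and control rats at room temperature past an adjusted p of 0.05 by edgeR's quasi-likelihood test, a background of 0 percent called. The smallest adjusted p was 0.237, for Ech1, and the next value, 0.698, was shared by 628 genes. DESeq2 called 1 gene, Ech1, with an adjusted p of 0.00870. The unadjusted p was under 0.05 for 712 genes (7.06%), beside 504 that 5% of the genes tested would make. Of the 712, 290 (2.88%) were higher and 422 (4.19%) lower in the knockout. Genes named below at an unadjusted p under 0.05 are therefore given as values that did not pass the adjusted test.

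A p that misses the threshold does not show that the groups were alike, and the intervals say how large a difference could be. The median size of the log2 difference over all genes was 0.16, and the median standard error (SE) was 0.22. For 8334 genes, 82.7% of those tested, the 95% interval of the log2 difference lay between -1 and 1, that is, within a 2-fold difference either way. Among the 6988 genes with a mean of at least 5 CPM, the counts scaled to a common library size, this held for 6376, or 91.2%.

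The tissue label was checked against skeletal muscle markers, and all 12 of those in the table were tested. Their summed level was 123152 to 161481 CPM in Ucp1 knockout muscle and 131602 to 197951 CPM in control muscle. Control libraries 1 and 2 stood apart from the other 13 on the second principal component of log2 levels, with scores of -62.3 and -79.8. The knockout libraries scored between -9.75 and 8.92 there, and the other 6 controls between -8.06 and 13.4. Ckm, muscle creatine kinase, was at 10379 to 15790 CPM in knockout libraries and 11057 to 12812 CPM in the other controls, but at 23761 and 23424 CPM in controls 1 and 2. Adipoq, the fat cell hormone adiponectin, was at 12.2 to 20.7 CPM in knockout libraries and 10.7 to 31.5 CPM in the other controls, against 0.630 and 0.313 CPM in controls 1 and 2. The 2 libraries were thus high for a muscle enzyme and almost without a fat cell transcript.

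**Figure D1:**
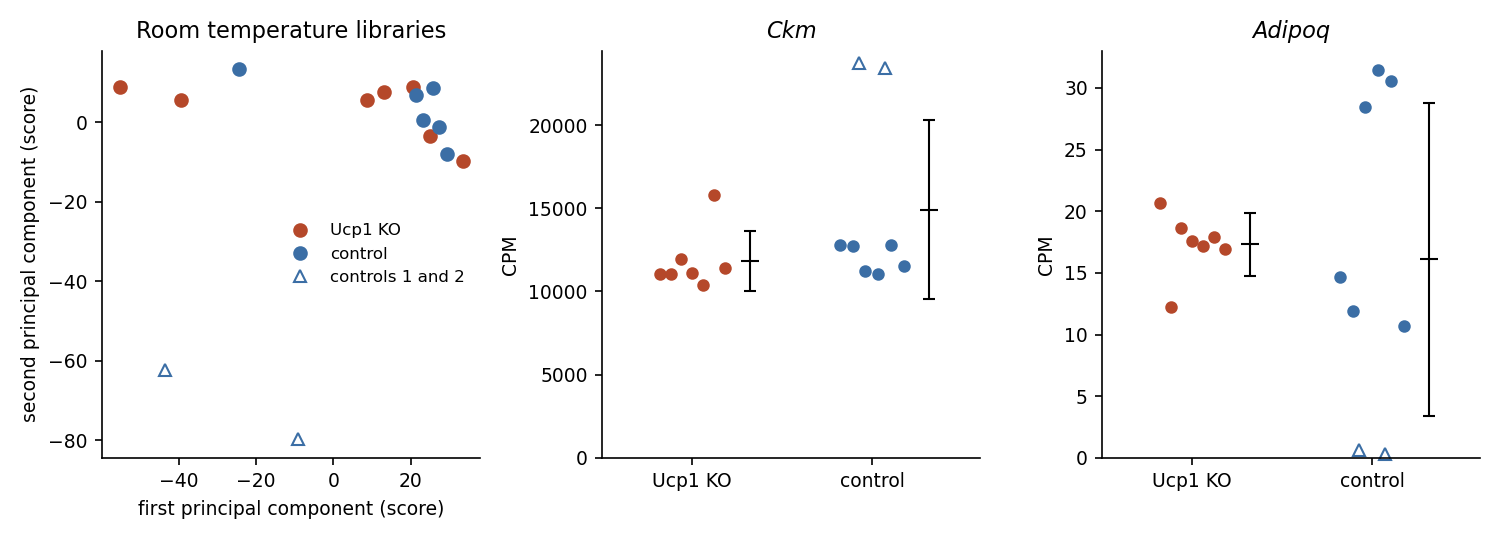
Left, scores of the 15 room temperature libraries on the first 2 principal components of log2 levels, with Ucp1 knockout in red and control in blue. Middle and right, Ckm and Adipoq in CPM per library, with black bars for mean and SD of each group; controls 1 and 2, drawn as open triangles, lie apart in all 3 panels.

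The same 2 libraries were low for markers of several other cell types. White fat cell markers summed to 433 to 644 CPM in knockout libraries and 418 to 748 CPM in the other controls, against 199 and 180 CPM in controls 1 and 2. Fibroblast and tendon markers summed to 1057 to 2339 CPM in knockout libraries and 1259 to 1883 CPM in the other controls, against 556 and 527 CPM in controls 1 and 2. Chad, a cartilage and tendon matrix gene, was at 0 CPM in both, and Tnmd, the tendon protein tenomodulin, at 0 and 0.104 CPM. Immune markers summed to 237 to 468 CPM in knockout libraries, to 233 to 359 CPM in the other controls and to 102 and 76.6 CPM in controls 1 and 2. Endothelial markers were not low, at 576 and 518 CPM in controls 1 and 2, against 425 to 571 CPM in the other controls. Nor were smooth muscle and pericyte markers, at 10177 and 12782 CPM in controls 1 and 2, against 8489 to 10561 CPM in the other controls. In whole muscle, fewer cells of a type and less RNA per cell cannot be told apart. Each result below is given with all 8 controls and, where it matters, without controls 1 and 2.

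Leaving out controls 1 and 2 brought the genes at an unadjusted p under 0.05 to 404 of 10144 (3.98%), under 5% of those tested. Of the 404, 233 (2.3%) were higher and 171 (1.69%) lower in the knockout. The balance of directions was thus the other way round from that with all 8 controls. Of the 422 genes that were lower in the knockout with all controls, controls 1 and 2 were the 2 highest controls in 293 (69.4%), against 24.3% of all genes tested. Only 79 of those 422 genes (18.8%) were lower at an unadjusted p under 0.05 without them. Of the 290 higher genes, controls 1 and 2 were the 2 lowest controls in 96 (33.1%), against 21.7% of all genes, and 109 (37.6%) remained at an unadjusted p under 0.05. No gene passed the adjusted test without them either. The smallest adjusted p was then 0.220, for a gene other than Ech1. Ech1 had a log2 difference of 0.53 with an adjusted p of 0.543.

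**Figure D2:**
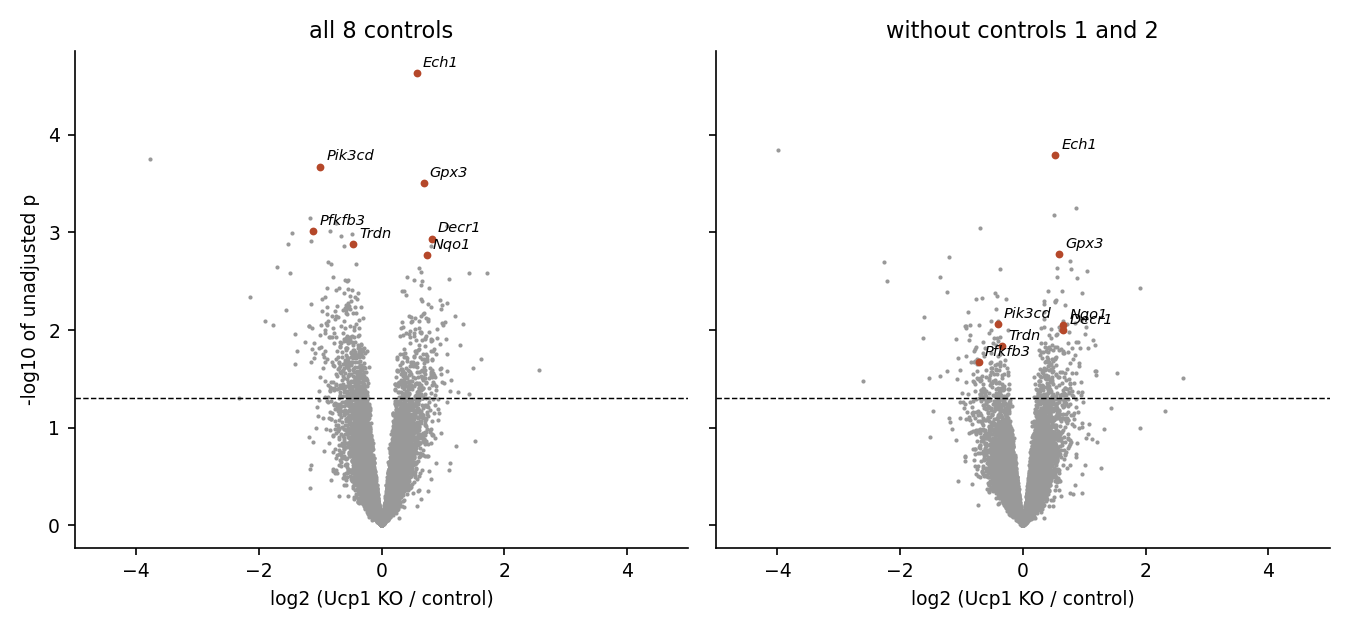
Log2 difference (Ucp1 knockout over control, horizontal) against -log10 of the unadjusted edgeR p (vertical) for every gene tested, with all 8 controls on the left and without controls 1 and 2 on the right. The dashed line marks an unadjusted p of 0.05; 712 genes lie above it on the left and 404 on the right, and 7 genes described in the text are named in red.

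Total counts per library and the share of counts from mitochondrial DNA were close in the groups. The total was 9.26 ± 1.29 M counts in knockout and 8.83 ± 1.13 M counts in control libraries (SD), a difference with p = 0.493 in a two-sided exact permutation test over 6435 splits. Transcripts of mitochondrial DNA took 12.4 ± 1.59% of the counts in knockout and 12.5 ± 1.15% in control muscle (SD), with p = 0.857 in the same exact test.

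Promoters are shown first for the antioxidant genes with the smallest p, Nqo1 and Gpx3, whose levels are described below. Nqo1 makes a quinone reductase that protects cells from redox cycling, and Gpx3 a secreted glutathione peroxidase. Each stretch is 300 bases from RefSeq, assembly GRCr8, with 250 bases before the gene's start and 50 after it, printed 5′ to 3′ on the strand of the gene. Capitals mark CCAAT and GGGCGG on either strand. The Nqo1 stretch is chr19:52220218-52220517 on the minus strand, and the Gpx3 stretch is chr10:39529085-39529384 on the plus strand.
Nqo1: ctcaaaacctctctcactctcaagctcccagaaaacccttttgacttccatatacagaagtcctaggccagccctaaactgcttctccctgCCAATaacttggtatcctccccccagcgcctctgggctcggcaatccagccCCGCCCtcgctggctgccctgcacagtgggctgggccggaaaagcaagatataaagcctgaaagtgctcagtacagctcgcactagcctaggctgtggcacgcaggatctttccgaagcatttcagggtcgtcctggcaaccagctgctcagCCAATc
Gpx3: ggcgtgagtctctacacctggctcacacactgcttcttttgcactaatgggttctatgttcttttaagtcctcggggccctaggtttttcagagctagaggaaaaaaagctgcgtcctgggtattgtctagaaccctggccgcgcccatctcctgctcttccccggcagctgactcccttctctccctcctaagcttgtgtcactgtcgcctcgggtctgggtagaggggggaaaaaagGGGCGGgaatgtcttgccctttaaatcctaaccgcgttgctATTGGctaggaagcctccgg
CCAAT occurred in 37.5% and GGGCGG in 33.1% of 33469 promoters of the same length, on either strand, and no marked motifs overlap here. TGACNNNGC, the core of the antioxidant response element, and AGGTCA, a nuclear receptor motif, matched in neither stretch, while 12.1% and 16.2% of promoters held them. These matches describe letters in a window and no binding. Sequence outside the window was not searched, so a motif farther from the start would be missed.

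Genes of fatty acid use were mostly on the higher side in the knockout. Of 32 tested genes of fatty acid uptake and oxidation, 27 had a positive log2 difference and 9 were at an unadjusted p under 0.05, all 9 of them higher, against 2.88% of all genes. The median log2 difference over the 32 was 0.27, beside -0.03 over all genes tested. Without controls 1 and 2, 4 members were at an unadjusted p under 0.05, all higher, and the median was 0.24, beside 0.00475 over all genes. None passed the adjusted test.

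Ech1, an isomerase needed to oxidise unsaturated fatty acids, had a lowest, median and highest level of 163, 184 and 218 CPM in knockout muscle, against 106, 121 and 169 CPM in control muscle. All 7 knockout libraries lay above the control median and 6 lay above every control. The log2 difference was 0.57 ± 0.12 (SE), with a 95% interval of 0.34 to 0.81 and an adjusted p of 0.237. Controls 1 and 2, at 122 and 109.5 CPM, lay among the other controls for this gene.

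Decr1, the mitochondrial reductase that acts beside Ech1 on unsaturated fatty acids, ran 118, 205 and 236 CPM in knockout muscle, against 68.5, 102 and 178 CPM in control muscle. Its log2 difference was 0.82 ± 0.23 (adjusted p = 0.698), and 0.66 without controls 1 and 2, which were the 2 lowest controls. All 7 knockout libraries were above the control median and 5 were above every control.

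Pdk4, the kinase that switches off pyruvate dehydrogenase when fat is burned, had the largest difference of the list. It ran 0.941, 5.17 and 8.42 CPM in knockout muscle, against 0.417, 1.46 and 4.84 CPM in control muscle, a log2 difference of 1.42 ± 0.43 (adjusted p = 0.698). These are low levels and the groups overlapped.

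The other 6 members at an unadjusted p under 0.05 take up, store or break down fat. Mlycd, which removes malonyl-CoA and so frees fatty acid entry into mitochondria, had a log2 difference of 0.47. Acaa2, the last enzyme of mitochondrial beta-oxidation, also had 0.47. Cd36, the fatty acid transporter of the cell surface, had 0.55, Plin5 of the lipid droplet 0.63, Fabp3, the fatty acid carrier of the muscle cytosol, 0.65, and Lipe, hormone-sensitive lipase, 0.33. Without controls 1 and 2 their differences were 0.27, 0.41, 0.48, 0.76, 0.43 and 0.32 in that order, and Plin5 was the 1 of the 6 still at an unadjusted p under 0.05. Cpt1b, which carries long-chain fatty acids into mitochondria, had a log2 difference of 0.28, and 0.06 without the 2 controls. At the low end were Slc27a1, a fatty acid transporter, with -0.25, and Acacb, which makes malonyl-CoA, with -0.22.

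**Figure D3:**
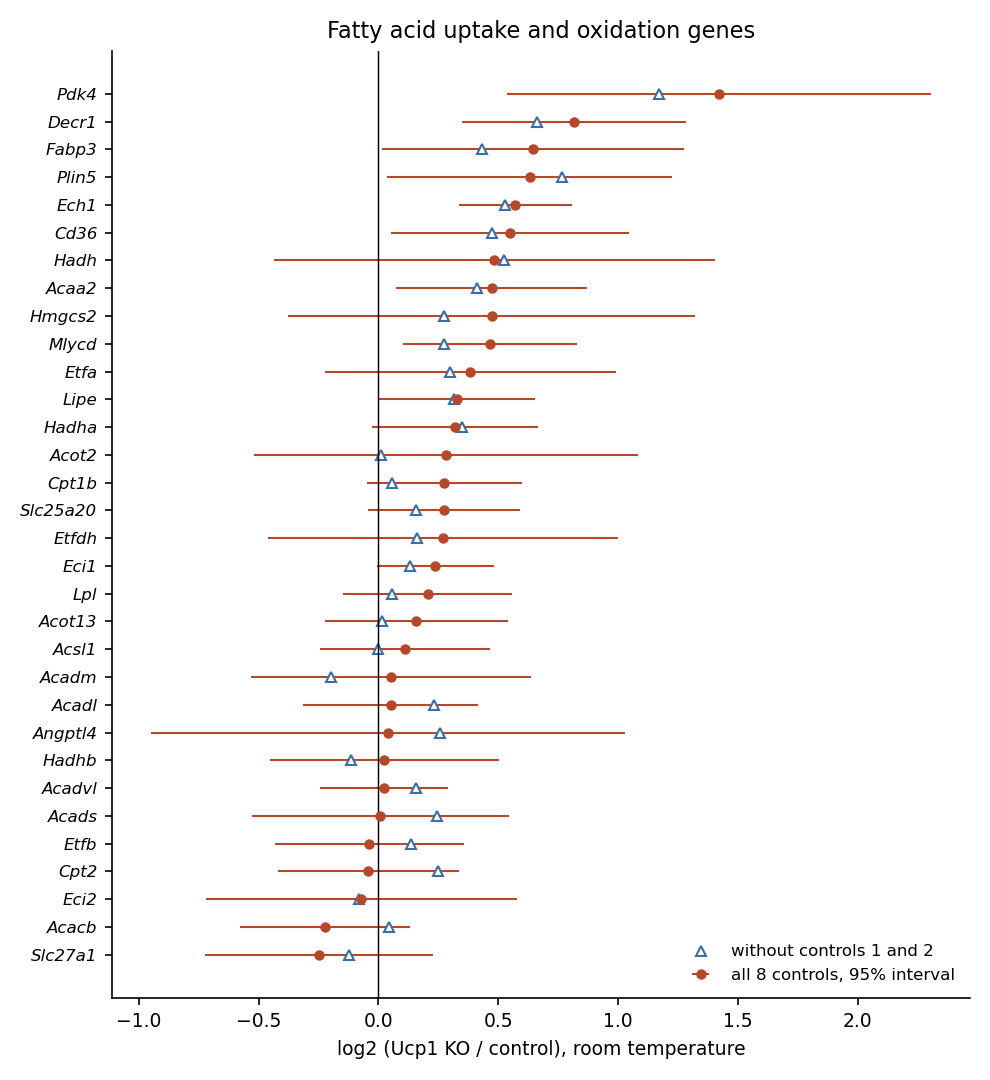
Log2 difference (Ucp1 knockout over control at room temperature) of the 32 tested genes of fatty acid uptake and oxidation, ordered by size. Red points and bars give the estimate with all 8 controls and its 95% interval, open blue triangles the estimate without controls 1 and 2; 27 of the 32 red points lie above 0.

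Mitochondrial genes outside fat oxidation had medians near 0. None of 34 nuclear respiratory chain genes and none of 12 genes of mitochondrial DNA were at an unadjusted p under 0.05 by edgeR's test. Their median log2 differences were -0.02 and -0.07. Without controls 1 and 2, 1 gene of each list was at that level, both lower, beside 3.98% of all genes. With all 8 controls 1 of 19 citric acid cycle genes was at that level, Idh3a, a subunit of isocitrate dehydrogenase. It ran 167, 245 and 310 CPM in knockout muscle and 208, 266 and 636 CPM in control muscle. Its log2 difference of -0.51 ± 0.19 became -0.08 without controls 1 and 2, which held 594 and 636 CPM. None of 13 lipogenesis genes was at that level with all 8 controls. Without controls 1 and 2, 2 of the 13 were, both higher in the knockout, against 2.3% of all genes on that side. The list's median of -0.18 became -0.11. Fasn, fatty acid synthase, had a log2 difference of -0.20 ± 0.45 with all 8 controls. Scd, the stearoyl-CoA desaturase, had -0.76 ± 0.71, and Thrsp, a lipogenic regulator, -0.27 ± 0.37. Controls 1 and 2 were the 2 lowest controls for Scd and Thrsp. Thrsp ran 9.51 to 16.8 CPM in knockout libraries and 8.88 to 22.7 CPM in the other controls, against 7.82 and 4.07 CPM in controls 1 and 2.

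Of 22 antioxidant genes, 3 (13.6%) were at an unadjusted p under 0.05, all higher in the knockout, against 2.88% of all genes on that side. Gpx3 ran 57.7, 72.8 and 94.1 CPM in knockout muscle, against 28.7, 45.5 and 61.2 CPM in control muscle. In 6 of 7 knockout libraries Gpx3 lay above every control, and the log2 difference was 0.68 ± 0.17 (adjusted p = 0.698), or 0.59 without controls 1 and 2. Gpx1, the cytosolic glutathione peroxidase, ran 297, 384 and 420 CPM in knockout muscle, against 208, 300 and 367 CPM in control muscle, a log2 difference of 0.39 ± 0.15 that was 0.26 without the 2 controls.

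Nqo1 ran 22.6, 26.4 and 70.1 CPM in knockout muscle, against 13.4, 19.1 and 28.1 CPM in control muscle. All 7 knockout libraries were above the control median, and 2 were above every control. Knockout animal 10 alone gave the highest value, while the other 6 lay between 22.6 and 29.1 CPM. The log2 difference of 0.74 ± 0.22 (adjusted p = 0.698) became 0.43 without knockout animal 10, and 0.66 without controls 1 and 2. The median over the whole antioxidant list was 0.05, and -0.05 without controls 1 and 2.

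Genes of fast fibres and of glycolysis mostly had lower values in the knockout, and the differences were smaller without controls 1 and 2. Of 13 tested fast fibre genes 12 had a negative log2 difference and 4 were at an unadjusted p under 0.05, all lower, against 4.19% of all genes. They were Tmod4, which caps actin filaments, Myl1, a fast myosin light chain, Myoz1, a Z-disc protein of fast fibres, and Mylk2, the skeletal myosin light chain kinase. Without controls 1 and 2 none of the 13 was at that level by edgeR's test, and the list's median was -0.11 beside -0.28 with them.

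Myl1 ran 6176, 9118 and 10380.5 CPM in knockout muscle, against 9449, 10757 and 18787 CPM in control muscle, and controls 1 and 2 held 18787 and 14871 CPM. Its log2 difference of -0.46 ± 0.16 became -0.25 without them. Slow fibre genes gave 0 of 17 members at an unadjusted p under 0.05; Myh7, the slow myosin heavy chain, ran 1712, 2353 and 2655 CPM in knockout muscle, against 1441, 2321 and 3154 CPM in control muscle, a log2 difference of 0.05 ± 0.16. The fast isoforms Myh2 and Myh4 and the fast calcium pump Atp2a1 were not analysed here.

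Pfkfb3, which makes the activator of glycolysis fructose 2,6-bisphosphate, was the 1 glycolysis gene of 17 (5.88%) at an unadjusted p under 0.05. That share was under the 7.06% of all genes. Of the 17, 13 had a negative difference, beside 5507 of 10082 over all genes. Pfkfb3 ran 33.7, 65.7 and 115 CPM in knockout muscle, against 74.8, 115 and 265 CPM in control muscle. Its log2 difference was -1.11 ± 0.31 (adjusted p = 0.698). Controls 1 and 2, at 224 and 265 CPM, were the 2 highest, and without them the difference was -0.72 with the same sign. In 5 of 7 knockout libraries it was below every control.

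In calcium handling, 2 of 25 genes of the sarcoplasmic reticulum list (8%) were at an unadjusted p under 0.05, a share near the 7.06% of all genes, and both were lower. Trdn, triadin, which anchors calsequestrin to the release channel, was at 3183, 3326 and 3538 CPM in knockout muscle, against 3489, 4410 and 6888 CPM in control muscle. The knockout libraries lay close together, 5 of 7 were below every control, and the log2 difference was -0.47 ± 0.13 (adjusted p = 0.698), or -0.33 without controls 1 and 2. Cacng1, a subunit of the muscle calcium channel, had -0.30 ± 0.14. Sln, sarcolipin, which uncouples the calcium pump and is a candidate heat source in muscle, ran 3.46, 8.88 and 24.8 CPM in knockout muscle, against 1.26, 7.03 and 18.2 CPM in control muscle. Its log2 difference of 0.75 ± 0.57 became 0.42 without controls 1 and 2, the 2 lowest controls at 1.26 and 1.77 CPM. Atp2a2, the slow calcium pump, had 0.09 ± 0.19, and Ryr1, the release channel, -0.32 ± 0.22, or 0.06 without the 2 controls.

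Among genes of uncoupling and energy sensing 5 of 24 (20.8%) were at an unadjusted p under 0.05, against 7.06% of all genes, and none was without controls 1 and 2 by edgeR's test. Prkag3 and Prkab2, subunits of AMP-activated kinase, had log2 differences of -0.66 ± 0.25 and -0.43 ± 0.18, or -0.23 and -0.31 without the 2 controls. Slc25a25, a mitochondrial ATP-magnesium carrier, had -0.78 ± 0.35, Gamt, of creatine synthesis, -0.64 ± 0.29, and Esrrg, an oestrogen-related receptor of oxidative muscle, 0.45 ± 0.21; without the 2 controls these were -0.73, -0.35 and 0.34. The relatives of Ucp1 did not differ past the threshold. Ucp2 ran 5.45, 6.13 and 9.69 CPM in knockout muscle, against 3.69, 4.88 and 6.20 CPM in control muscle, with a log2 difference of 0.46 ± 0.27. Ucp3, the form of skeletal muscle, ran 52.2, 181 and 278 CPM in knockout muscle, against 82.2, 191 and 279 CPM in control muscle, with -0.16 ± 0.33. Ppargc1a, the coactivator of mitochondrial genes, had 0.16 ± 0.32.

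In the list of regeneration, satellite cells and denervation, 4 of 15 genes (26.7%) were at an unadjusted p under 0.05, 2 in each direction, against 7.06% of all genes. Runx1, a factor known to rise in denervated muscle, ran 13.1, 16.8 and 20.7 CPM in knockout muscle, against 8.73, 11.8 and 15.6 CPM in control muscle, a log2 difference of 0.56 ± 0.21. Cdkn1a, the cell cycle inhibitor p21, ran 23.6, 43.0 and 62.3 CPM in knockout muscle, against 11.1, 23.9 and 36.7 CPM in control muscle, with 0.83 ± 0.34. Both were at an unadjusted p under 0.05 without controls 1 and 2 too, with 0.65 and 1.02. Hdac9, a histone deacetylase, had -1.49 ± 0.46, and Chrne, the adult subunit of the acetylcholine receptor, -0.47 ± 0.18. These were -0.39 and -0.35 without controls 1 and 2, neither at that level.

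Clock and stress lists had 1 or 2 members each at an unadjusted p under 0.05, beside 7.06% of all genes. In the circadian list these were 2 of 16 (12.5%), Nr1d2, a repressor of the clock, with -0.33 ± 0.13, and Bhlhe41, another clock repressor, with 0.58 ± 0.24. Leaving out controls 1 and 2 gave -0.19 and 0.41, no clock gene was at that level by edgeR's test, and the list's median of -0.05 became 0.10. Xbp1 and Shmt2 of the endoplasmic reticulum and amino acid stress list, 2 of 21 (9.52%), had 0.77 ± 0.38 and 0.37 ± 0.17, or 0.45 and 0.42 without the 2 controls, where Shmt2 was still at that level. Foxo1, a driver of atrophy genes, and Bnip3l, a receptor for removal of mitochondria, 2 of 16 (12.5%) in the atrophy and autophagy list, had 0.95 ± 0.41 and -0.30 ± 0.14, or 0.69 and -0.07 without the 2 controls. Zfp36, 1 of 19 (5.26%) in the contraction-response list, had -0.85 ± 0.40, or -0.20 without them. Hmgcs1 of cholesterol synthesis, 1 of 14 (7.14%), had -0.34 ± 0.14, or -0.38. No list had a member that passed the adjusted test.

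With all 8 controls, 16 of the 33 lists had no member at an unadjusted p under 0.05, by edgeR's test. Their medians lay between -0.27 and 0.33. They include the muscle markers, glycogen, branched-chain amino acid breakdown, heat shock, insulin signalling, thyroid hormone handling, extracellular matrix and interferon response. Markers of brown fat, red blood cells, smooth muscle and nerve are also among them. Without controls 1 and 2, extracellular matrix had 3 of 26 genes at that level, 2 higher and 1 lower, and lipogenesis 2 of 13, both higher. Heat shock, insulin signalling, interferon response, branched-chain amino acid breakdown, nuclear respiratory chain and mitochondrial DNA had 1 each, beside 3.98% of all genes. The shares of cell type markers at an unadjusted p under 0.05 stand beside 7.06% of all genes. S100a8 of neutrophils and Cd163 of macrophages, 2 of 16 immune markers (12.5%), had 1.63 ± 0.66 and 0.43 ± 0.21. All 16 immune markers had a positive difference, with a median of 0.37 that was 0.12 without controls 1 and 2. S100a8 and Cd163 were not at that level without them. Aqp7 and Lipe were the 2 of 13 white fat cell markers (15.4%) at that level, with 0.97 ± 0.41 and 0.33 ± 0.16. Lipe is also counted in the fatty acid list. Of those 13 markers 4 had a negative difference, and the median of 0.13 became -0.27 without controls 1 and 2, with no member at that level by edgeR's test. Eng, an endothelial receptor, 1 of 13 (7.69%), had 0.55 ± 0.19. Of the 13 endothelial markers 8 had a negative difference, and their median was -0.04. Scx, a tendon factor, 1 of 15 fibroblast and tendon markers (6.67%), had -0.71 ± 0.29. Like the endothelial share, this share was near that of all genes. The median of those 15 was -0.05, and without controls 1 and 2 it was -0.32, with 3 members at that level, all lower. The part of these cell types in the differences above was not tested.

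The 24 genes with the smallest p, at a mean of at least 5 CPM, held 9 that were higher and 15 that were lower in the knockout. Besides those above they included Pik3cd, the delta catalytic subunit of PI3-kinase, at 21.3, 26.97 and 32.6 CPM in knockout muscle, against 27.4, 39.8 and 119 CPM in control muscle. Its log2 difference of -1.004 ± 0.24 became -0.41 without controls 1 and 2, which held 96.3 and 119 CPM. Clcn3, a chloride and proton exchanger of endosomes, ran 25, 35.7 and 46 CPM in knockout muscle, against 10.4, 22.5 and 31.9 CPM in control muscle, with 0.64 ± 0.20. Rps28, a ribosomal protein whose reads may be shared with near-identical copies, had 0.42 ± 0.13.

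Luc7l2, a splicing factor, had -0.83 ± 0.25, and Chrac1, a chromatin remodelling subunit, -0.69 ± 0.22. These became -0.16 and -0.13 without controls 1 and 2, and neither was at an unadjusted p under 0.05. Dhx35, a helicase, had -0.85 ± 0.23, or -0.45 without the 2 controls, and Bcs1l, which helps assemble respiratory complex III, -0.61 ± 0.17, or -0.47. In all 15 lower genes controls 1 and 2 were the 2 highest controls, and 9 of the 15 were at an unadjusted p under 0.05 without them, against all 9 of the higher genes. Among the higher genes controls 1 and 2 were the 2 lowest controls in 3 of 9.

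**Figure D4:**
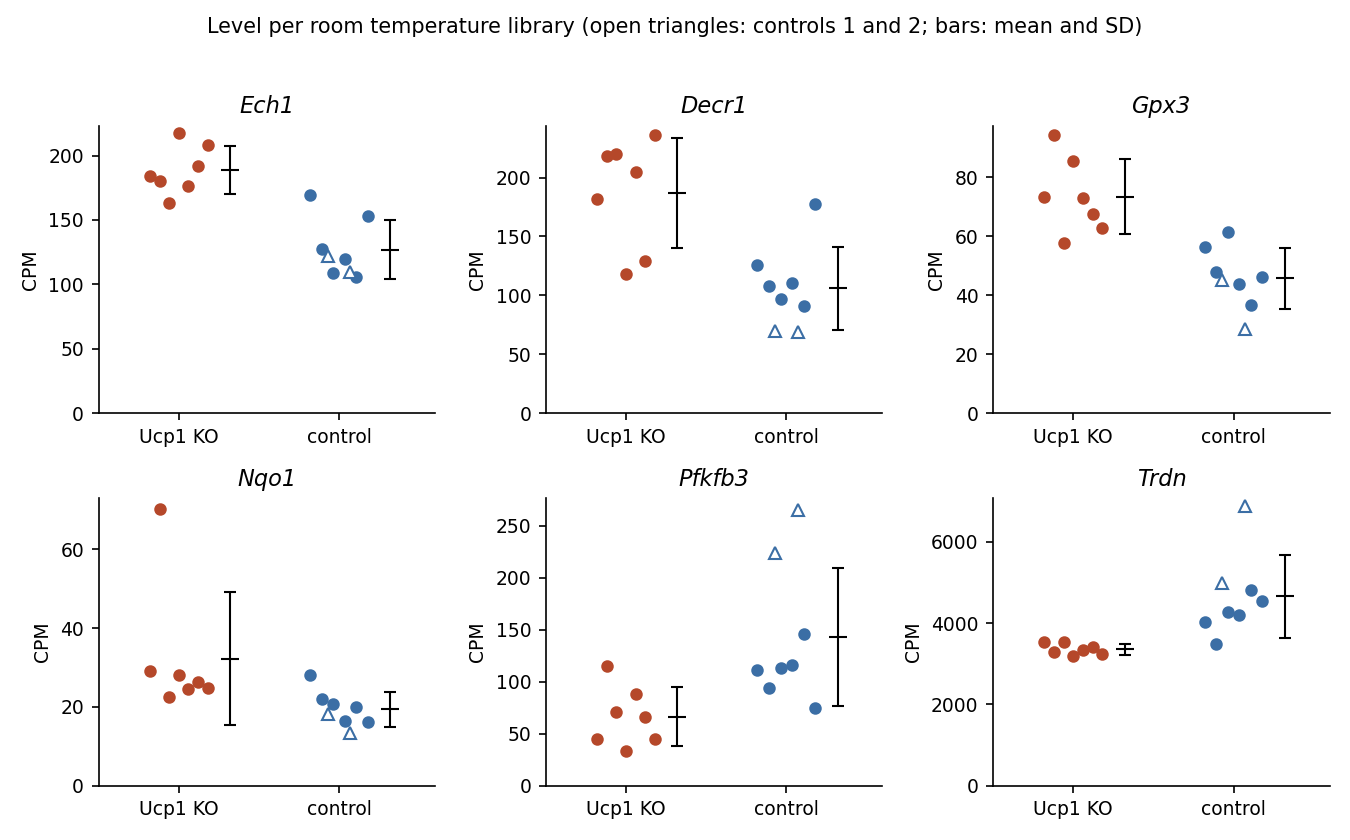
Level in CPM in each of the 7 Ucp1 knockout (red, left) and 8 control (blue, right) libraries for 6 of the 24 genes with the smallest p; open triangles are controls 1 and 2 and black bars give mean and SD. Ech1 and Gpx3 have 6 of 7 knockout points above every control, the Nqo1 mean is raised by 1 knockout animal at 70.1 CPM, and controls 1 and 2 are the highest points of Pfkfb3 and Trdn.

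None of the 24 had groups that did not overlap. Over all genes 6 (0.0595%) had every knockout library on one side of every control, and they were picked out after their values were seen; 3 (0.0298%) were higher and 3 (0.0298%) lower in the knockout. Cpox, of haem synthesis, ran 61.3, 68.5 and 85.7 CPM in knockout muscle, against 51.6, 57.3 and 60.1 CPM in control muscle. Tln1, talin, which ties integrins to actin, ran 36.8, 42.4 and 49.3 CPM in knockout muscle, against 28.9, 33.7 and 36.4 CPM in control muscle. Svil, supervillin, an actin-binding protein, ran 123, 142 and 152 CPM in knockout muscle, against 156, 164 and 210 CPM in control muscle. The other 3 were Anp32a, which was higher by 0.45 on the log2 scale, and Fam162a and Tox3, with -0.50 and -0.59. Fam162a was at 403 and 467 CPM in controls 1 and 2 and at 217 to 244 CPM in the other controls, and without those 2 its difference was -0.22, no longer at an unadjusted p under 0.05. Without controls 1 and 2, 24 genes (0.238%) did not overlap.

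The animals kept in the cold give a second measurement of the knockout difference on other rats. There, 1 gene passed the adjusted edgeR test (0.00992%), Ntf4, a neurotrophin, with a log2 difference of -0.99 (adjusted p = 0.0310) in the cold and -0.22 at room temperature. The unadjusted p was under 0.05 for 633 genes (6.28%). No gene passed the adjusted test of the difference between the knockout effects at the 2 temperatures, and 737 (7.31%) were at an unadjusted p under 0.05. DESeq2 called 1.

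Of the 24 genes with the smallest p at room temperature, 16 had the same sign in the cold. The share of all genes with the same sign is not given here. The difference between the knockout effects was at an unadjusted p under 0.05 for 15 of the 24, beside 7.31% of all genes. The 24 were chosen on room temperature values that enter this difference. In the cold itself 1 of the 24 was at an unadjusted p under 0.05, beside 6.28% of all genes. That gene was Nqo1, at 42.1, 47.5 and 74.1 CPM in cold knockout muscle, against 22.01, 27.4 and 46.1 CPM in cold control muscle, a log2 difference of 0.73 ± 0.21 (adjusted p = 0.575). The knockout median there lay above the highest cold control. Ech1 had 0.17 ± 0.11 in the cold, Decr1 0.13 ± 0.22, Gpx3 0.20 ± 0.16 and Pfkfb3 -0.38 ± 0.29. Of the 32 fatty acid genes, 2 were at an unadjusted p under 0.05 in the cold, both higher. That share was near the 6.28% of all genes. The median of the 32 in the cold was 0.15, beside 0.04 over all genes. Over all genes the correlation of the room temperature and cold differences was -0.08, a description over genes, which are not independent.

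**Figure D5:**
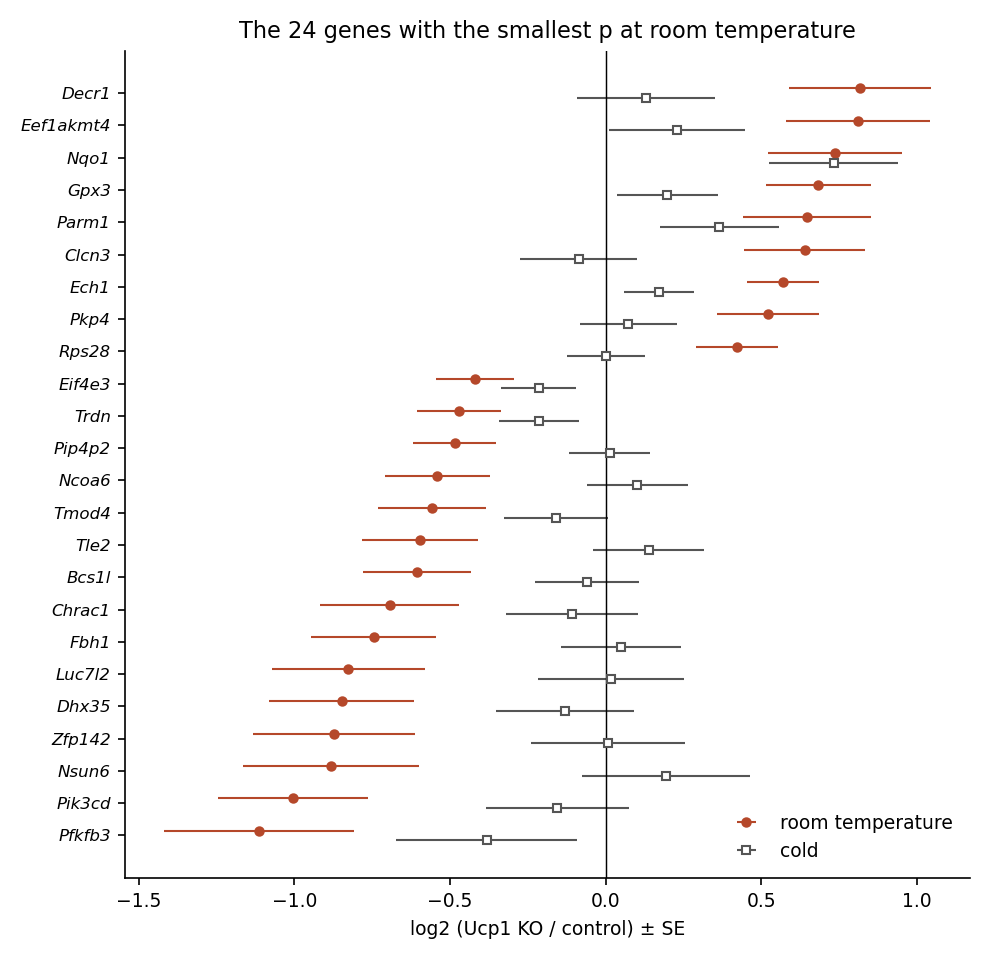
Log2 difference (Ucp1 knockout over control) and its SE for the 24 genes with the smallest p at room temperature, as red circles at room temperature and open grey squares in the cold. The genes were chosen on the red values; the cold values come from other animals and are nearer 0 for most genes, with Nqo1 at 0.74 and 0.73.

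At both temperatures, 40 genes (0.397%) were at an unadjusted p under 0.05 in the same direction, 19 higher and 21 lower in the knockout. A further 33 were at that level in opposite directions. Without controls 1 and 2, 19 of the 40 were still at that level at room temperature, and Gpx1 was not. Among the 40 were Runx1, with 0.61 ± 0.20 in the cold, Cdkn1a, with 0.85 ± 0.32, Gpx1, with 0.31 ± 0.15, Eng, with 0.43 ± 0.19, and Svil, with -0.31. Bhlhe41 had opposite signs at the 2 temperatures and the smallest p for the difference between them. It ran 3.76, 6.36 and 9.81 CPM in cold knockout muscle, against 6.70, 15.1 and 19.9 CPM in cold control muscle, a log2 difference of -1.17 ± 0.24. The cold difference minus the room temperature one was -1.75 ± 0.34 (adjusted p = 0.125). Thrsp had 1.70 ± 0.35 (adjusted p = 0.0906) in the cold, and the cold difference minus the room temperature one was 1.97 ± 0.51 (adjusted p = 0.452).

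Genes that lie beside Ucp1 on chromosome 19, by their order in RefSeq GRCr8, were described as a group. Of 19 tested genes within 1 Mb, 2 were at an unadjusted p under 0.05 at room temperature, both lower, against 7.06% of all genes, and log2 differences ran from -0.79 for Il15 to 0.63 for Adgre5. Tecr, an enzyme of very-long-chain fatty acid synthesis, ran 17.3, 23.8 and 31.4 CPM in knockout muscle, against 22.6, 29.98 and 41.1 CPM in control muscle, a log2 difference of -0.30 ± 0.14, or -0.41 without controls 1 and 2. In the cold it was -0.34 ± 0.14. Brme1, a meiotic recombination gene, had -0.69 ± 0.29, and -0.14 without controls 1 and 2. The nearest tested neighbours on either side, Scoc and Rnf150, had -0.05 ± 0.15 and 0.26 ± 0.17, and Rnf150 was -0.61 ± 0.17 in the cold. In the cold 4 of the 19 were at an unadjusted p under 0.05, against 6.28% of all genes. Besides Tecr and Rnf150 these were Gipc1, a scaffold protein, with 0.37 ± 0.15 in the cold and 0.20 ± 0.16 at room temperature, and Adgrl1, an adhesion receptor, with 0.60 ± 0.26 in the cold and 0.08 ± 0.27 at room temperature.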

How the data were processed

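The 31 libraries of gastrocnemius RNA were prepared by QuantSeq, in which 1 tag near the 3′ end stands for a transcript, so levels do not scale with transcript length. The table used holds raw counts of reads per gene as deposited, on Rnor 6.0 per the submitters' processing notes; the aligner, the counter and the use of strand are each not given in the sources used here. A second deposited table holds normalized signal, which equals the authors' counts divided by 1 size factor per library (DESeq2 1.22.2, per the submitters' processing notes) to a relative difference of 1.01e-09, so tests used the counts. The table lists 11289 genes with a lowest total of 93 counts, so a filter had been applied before deposition. Symbols came from the table for 10201 genes and from RefSeq GRCr8 for 168, and 920 had none. Total counts ran from 6.56 to 11.9 M per library, and the closest pair at room temperature had a chi-square per degree of freedom of 5.00, so no library was a copy. Counts without molecular identifiers include PCR copies.

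Tests used edgeR 4.0.16 under R 4.3.3 (TMM scaling, filterByExpr with minimum count 10 and minimum total 15, 10082 genes kept). The quasi-likelihood model gave each of the groups its mean, without covariates, and took in the 31 libraries of both temperatures (27 residual degrees of freedom); p-values are two-sided and adjusted by Benjamini-Hochberg over all genes within a comparison, with a threshold of 0.05. Each SE was obtained by dividing the absolute log2 difference by the root of F. Levels are TMM-scaled CPM, and principal components used log2 levels with a prior count of 2. DESeq2 1.42.0, other scalings and filters, and leaving out libraries were alternatives. The code was tested on simulated counts. P-values measure the spread between animals; an unrecorded batch that followed the animal numbers cannot be told apart from genotype.

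The lists and the genes singled out were chosen with earlier results of these data known. Named are the 24 genes with a symbol, a mean of at least 5 CPM and the smallest p, since none passed; up to 4 members of each of 33 lists at an unadjusted p under 0.05; a set of fixed genes; and, of the 19 tested genes within 1 Mb of Ucp1, those at that level at either temperature and the nearest on each side. The remaining fatty acid genes at that level, the genes whose groups did not overlap, Esrrg, Ckm, Adipoq, Ntf4 and list extremes were named after their values were seen.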

Additional observations from a re-analysis of the deposited data

Results flagged for a closer look

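Levels of named genes and library measures were examined in 178 groups of 7 or 8 room temperature libraries, and in 9 of them the level of a gene in 1 library lay farther from the rest than Dixon's 95% critical value allows. Chance flags about 1 in 20 groups. All 9 were Ucp1 knockout libraries. The rule looks for 1 library apart from the rest, so 2 that lie apart together can go unflagged. For Ckm, controls 1 and 2 held 23761 and 23424 CPM, against at most 12812 CPM in the other controls, and were not flagged. The flags therefore do not compare the groups. In knockout animal 10, Nqo1 was at 70.1 CPM, against 22.6 to 29.1 CPM in the other 6, Gamt at 2.54 CPM, against 6.07 to 9.49 CPM, and Adgrl1 at 5.46 CPM, against 7.70 to 9.48 CPM. In knockout animal 14, Fbh1 was at 5.86 CPM, against 11.7 to 16.03 CPM, Luc7l2 at 51.6 CPM, against 92.95 to 113 CPM, Scoc at 33.0 CPM, against 44.1 to 54.6 CPM, and Svil at 123 CPM, against 141 to 152 CPM. The same animal had Ckm at 15790 CPM, against 10380 to 11950 CPM in the other 6. In knockout animal 9, Cd163 was at 24.97 CPM, against 14.9 to 18.3 CPM.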

How the results depend on the processing

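No gene was called between Ucp1 knockout and control muscle at room temperature with RLE scaling, no filter on low counts, robust spread, only the 15 room temperature libraries, the first principal component as a covariate, without controls 1 and 2, or without the 7 libraries under -30 on the first component, a setting added after seeing the data. DESeq2 called 1 gene, Ech1, which is also its 1 called list member, and leaving out each animal in turn gave 0 to 1 for both counts, the 1 being Ech1 without control 3 (log2 difference 0.64, adjusted p = 0.0331). Its difference ran from 0.53 to 0.64 over the single omissions. Genes at an unadjusted p under 0.05 numbered 404 without controls 1 and 2, 474 without the low libraries, 1261 with the covariate, and 344 (without control 2) to 998 (without control 4) over the single omissions; without control 1 they were 454. Of these, 57.7% were higher in the knockout without controls 1 and 2, and 52.9% of 569 with only the room temperature libraries, against 40.7% of 712 in the analysis reported. Groups did not overlap for 24 genes without controls 1 and 2. In the cold, DESeq2 called 6 genes, the covariate 8, omission of room temperature controls 1 and 2 4, and omission of the low libraries 0. DESeq2 called 1 gene in the difference between the knockout effects.

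Some genes that had not passed the test changed sign, among them Ryr1, at -0.32 in the analysis reported. Without controls 1 and 2 the log2 difference was 0.0095 for Ucp3, -0.075 for Atp2a2, -0.12 for Ppargc1a, 0.057 for Ryr1 and -0.096 for Myh7; without the low libraries it was 0.060 for Ucp3, -0.080 for Atp2a2 and -0.037 for Myh7. Over the single omissions it ran from -0.31 to 0.0098 for Ucp3, -0.0019 to 0.16 for Atp2a2, -0.024 to 0.12 for Myh7, -0.33 to 0.023 for Fasn and -0.10 to 0.019 for Scoc. The cause of these changes was not tested. No paired analysis was possible because the animals carry separate numbers that no 2 groups share.

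Reads per gene limit the low genes most: the 95% interval lay within a 2-fold difference for 82.7% of all genes, and for 91.2% of those with a mean of at least 5 CPM.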

Other observations

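On chromosome 19, which holds Ucp1, 28 of 273 tested genes (10.3%) were at an unadjusted p under 0.05 between Ucp1 knockout and control muscle at room temperature, against 6.93% of 8931 genes placed on other chromosomes. In the cold the shares were 8.79% and 6.11%. Genes at that level in the same direction at both temperatures made up 1.47% of chromosome 19, or 4 genes, against 0.347% elsewhere. The 4 were Nqo1 and Fbxl8, higher in the knockout, and Tecr and Ednra, lower. Chromosome 9 had a larger share at room temperature, 11.3% of 354 genes, with 6.5% in the cold. Without controls 1 and 2 the room temperature counts were 13 of 354 on chromosome 9 and 15 of 273 on chromosome 19. On chromosomes other than 19 that count was 336 of 8931. No test was made of these shares.

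Fbxl8, an F-box protein of the ubiquitin system, ran 2.84, 3.25 and 4.61 CPM in Ucp1 knockout muscle, against 1.27, 2.08 and 4.79 CPM in control muscle at room temperature. Its log2 difference was 0.61 ± 0.24 with all 8 controls, 0.87 without controls 1 and 2, and 0.58 in the cold. Control 1 alone gave the highest control value, and the other controls apart from 1 and 2 reached at most 2.54 CPM. Ednra, the endothelin A receptor, had -0.67 ± 0.32 at room temperature, -0.37 without controls 1 and 2, and -0.89 in the cold.

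Lgi3, a secreted protein of the LGI family, had the lowest log2 difference of all genes tested, at a level under that set for named genes. It ran 0, 0.101 and 0.480 CPM in Ucp1 knockout muscle, against 0.118, 2.72 and 4.32 CPM in control muscle, with a log2 difference of -3.77 ± 0.89 (adjusted p = 0.698) and -3.99 without controls 1 and 2. In the cold it was -0.97.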
